A study of Mus musculus with 28 samples.

Results

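The NLRP3 inflammasome is represented here by 10 genes, Nlrp3, Nek7, P2rx7, Txnip, Pycard, Casp1, Casp4, Il1b, Il18 and Gsdmd, measured in ventricular myocardium of mice. The members were chosen by name, as the sensor that responds to crystals, its licensing factors, its adaptor and caspases, and its outputs. All 10 names matched 1 row each of the 45513 gene rows of the count table, and all 10 were among the 24273 genes that passed the filter on low counts.

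NLRP3 is a cytosolic sensor, found mostly in macrophages and other myeloid cells, that assembles when a cell loses potassium, for example after crystals rupture its lysosomes or after extracellular ATP opens a membrane channel. It recruits an adaptor that clusters caspase-1, which cuts the precursors of interleukin-1β and interleukin-18 and frees the pore-forming end of gasdermin D, so that the cytokines leave the cell and the cell may die by pyroptosis. Assembly needs a first signal that raises transcription of Nlrp3 and Il1b, and a second that acts on proteins already made, so mRNA levels report the first step and not the activity of the complex. Calcium oxalate crystals are known activators of this sensor in the kidney.

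The hearts came from 28 adult male C57BL/6 mice in a design that crossed kidney surgery with a bacterial gavage. Chronic kidney disease (CKD) was induced at 6 weeks of age by 5/6 nephrectomy in stages, and the controls had sham surgery. On day 7 the mice received 1 oral dose of Oxalobacter formigenes (Oxf), a gut bacterium that uses oxalate as its carbon source, or the culture medium alone (vehicle). The groups were sham-vehicle (10 libraries), CKD-vehicle (6), sham-Oxf (5) and CKD-Oxf (7), each library being 1 mouse, and the sham-vehicle mice, like all others, ate a diet with 1% hydroxyproline, from which the body makes oxalate, and 0.5% calcium. No group without this diet was analysed here. The study planned 10 mice per group, and the others were not analysed here.

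Total counts ranged from 19.8 M to 65.4 M per library, with a median of 38.1 M. Sham-Oxf replicate 1 stood apart: it had the fewest counts (19.8 M), and only 15879 genes were counted in it, where the remaining 27 libraries had 27128 to 33995. Of 12 macrophage markers, Cd68, Itgam and Cx3cr1 were at 0 in it and none was at 0 in any other library. The main results that use it are therefore given with and without it, and the others with it kept in. Cardiomyocyte markers were abundant in every library, with a summed level of 17185 to 44729 CPM (counts scaled by library size, with TMM factors). A score of clock genes (mean log2 CPM of night-phase minus day-phase genes, relative to sham-vehicle) did not overlap between CKD-vehicle (-2.48 to -0.19) and CKD-Oxf (-0.08 to 1.61) or sham-Oxf (0.83 to 1.95). Between 1.83% and 21.0% of each library's counts fell on Rn7s1 and Rn7s2, the genes of 7SL RNA, which scaffolds the particle that guides secretory proteins to the endoplasmic reticulum.

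Every member was detected. Casp1, Casp4, Il18, Gsdmd, P2rx7, Nek7 and Txnip had counts in 28 of 28 libraries. Nlrp3, Pycard and Il1b had counts in 27, and all 3 were at 0 in sham-Oxf replicate 1, where a count of 0 allows a level of up to 0.142 CPM (3 counts, counting error only). Ordering the members by CPM per kb of exon, which corrects for gene length, put Txnip far above the rest, at 89.5 ± 18.9 CPM per kb (mean ± SD, n = 28). Gsdmd (6.16 ± 1.30) and Nek7 (5.73 ± 1.41) came next on the same per-kb scale. Casp1 followed at 2.31 ± 0.84, Casp4 at 1.65 ± 0.47, P2rx7 at 1.596 ± 0.32 and Pycard at 1.06 ± 0.35 CPM per kb. The cytokines and the sensor were lowest, with Il18 at 0.70 ± 0.32, Il1b at 0.38 ± 0.19 and Nlrp3 at 0.25 ± 0.09 CPM per kb.

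The order was clear between some neighbours and not between others. Txnip exceeded Gsdmd per kb in 28 of 28 libraries, and Nek7 exceeded Casp1 in 27. Gsdmd exceeded Nek7 in 19 of 28 and Casp4 exceeded P2rx7 in 13 of 28, so neither of these pairs was ordered beyond the spread between libraries. Il1b exceeded Nlrp3 in 19 of 28 libraries.

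**Figure D1:**
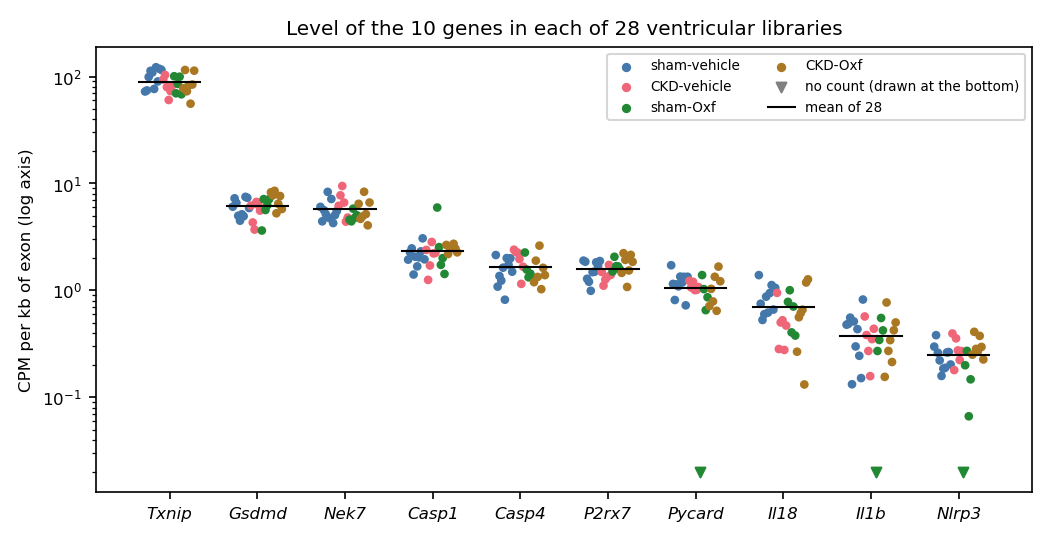
Level of each member in CPM per kb of exon on a log axis, 1 point per library coloured by group, with the mean of the 28 libraries as a bar and triangles for libraries with no count. Txnip lies above all other members in every library, and Nlrp3, Il1b and Il18 lie lowest.

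Nlrp3, the sensor itself, lies on chromosome 11 (mm10, 59541568 to 59566956, plus strand) with no overlapping gene. It was rare, with 10 to 87 counts in the libraries where it was counted. Its lowest, median and highest levels were 0.644, 0.981 and 1.55 CPM in sham-vehicle, 0.730, 1.11 and 1.61 CPM in CKD-vehicle and 0.918, 1.15 and 1.66 CPM in CKD-Oxf. The 5 sham-Oxf libraries held 0, 0.811, 1.10, 0.270 and 0.599 CPM. Of the 5 sham-Oxf levels 4 were thus below the lowest CKD-Oxf level, and only replicate 3 overlapped that group. Mean log2 CPM (± SD) was 0.01 ± 0.36 for sham-vehicle (n = 10), 0.22 ± 0.40 for CKD-vehicle (n = 6) and 0.32 ± 0.30 for CKD-Oxf (n = 7). Sham-Oxf was at -1.32 ± 1.82 (n = 5), or -0.57 ± 0.79 (n = 4) without replicate 1.

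Nek7, a kinase that bridges NLRP3 subunits and is needed for their assembly, lies on chromosome 1 (138482875 to 138620141, minus strand). Its levels ran from 31.5 through a median of 39.3 to 61.6 CPM in sham-vehicle, from 32.4 through 47.3 to 69.8 CPM in CKD-vehicle and from 30.0 through 38.1 to 61.7 CPM in CKD-Oxf. The sham-Oxf libraries held 33.8, 32.6, 42.9, 35.3 and 37.2 CPM, the narrowest spread of the 4 groups. All groups overlapped, with mean log2 CPM of 5.35 ± 0.30, 5.54 ± 0.42, 5.18 ± 0.15 and 5.37 ± 0.36 for the groups in the order sham-vehicle, CKD-vehicle, sham-Oxf, CKD-Oxf.

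P2rx7, the ATP-gated channel whose opening lets potassium out, lies on chromosome 5 (122643911 to 122691432, plus strand). Sham-vehicle spanned 5.93 to 11.3 CPM (median 9.50), CKD-vehicle 6.61 to 10.3 (median 8.16) and CKD-Oxf 6.44 to 13.3 (median 11.1). In sham-Oxf it was at 8.96, 12.3, 10.1, 10.02 and 9.40 CPM. Of the 7 CKD-Oxf libraries 4 exceeded the highest CKD-vehicle library, while the lowest CKD-Oxf library lay below all 6 of them. Mean log2 CPM was 3.20 ± 0.32, 3.05 ± 0.22, 3.34 ± 0.17 and 3.35 ± 0.37 in the same order of groups.

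Txnip encodes an arrestin-like protein that binds thioredoxin, restrains glucose uptake and was described as a ligand of NLRP3 under oxidative stress. It lies on chromosome 3 (96557957 to 96561883, plus strand). Glucose and related sugars drive its transcription through carbohydrate response elements that bind the MondoA and ChREBP factors (genes Mlxip and Mlxipl). The bases before its start site are shown because the most abundant member carries such an element there, and the 250 bases are chr3:96557707-96557956 (plus strand, RefSeq, GRCm38.p6), written 5′ to 3′ with the element in capitals.
Txnip: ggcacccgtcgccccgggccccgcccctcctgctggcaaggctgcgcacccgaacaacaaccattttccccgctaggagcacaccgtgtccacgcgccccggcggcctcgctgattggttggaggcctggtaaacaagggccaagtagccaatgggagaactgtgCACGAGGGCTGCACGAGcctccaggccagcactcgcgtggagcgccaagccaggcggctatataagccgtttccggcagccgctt
The pattern searched was CACGAGNNNNNCACGAG on either strand, and it was found from 85 to 69 bases before the start. The pattern fixes letters taken from Txnip's own element, so its rarity follows from that choice: of 32851 RefSeq promoters (250 bases before to 50 after a start) 1 held it (0.00304%), that of Txnip. The clock-type E-box CACGTG, searched in the same windows, was present in 7.15% of all promoters and in 1 of the 9 members that had a window, Casp1, and not in that of Txnip. A match describes letters in a window and does not show binding.

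Txnip levels spanned 226 to 381 CPM in sham-vehicle (median 325), 188 to 323 in CKD-vehicle (median 253) and 174 to 359 in CKD-Oxf (median 259). The sham-Oxf libraries held 314, 218, 267, 311 and 213 CPM. Every group overlapped every other, and sham-vehicle had the highest median. Averages in log2 CPM were 8.24 ± 0.30, 7.98 ± 0.27, 8.03 ± 0.27 and 8.03 ± 0.37 for the groups in the order sham-vehicle, CKD-vehicle, sham-Oxf, CKD-Oxf.

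Pycard encodes ASC, the adaptor that joins the sensor to caspase-1, and lies on chromosome 7 (127989708 to 127993867, minus strand). Levels spanned 2.76 to 6.54 CPM in sham-vehicle (median 4.44), 3.83 to 4.67 in CKD-vehicle (median 4.07) and 2.45 to 6.35 in CKD-Oxf (median 3.93). In sham-Oxf they were 0, 5.29, 3.91, 2.49 and 3.28 CPM. The 0 of replicate 1 widened that group to 0.63 ± 2.803 on the log2 CPM scale, against 1.87 ± 0.45 (n = 4) without it. Sham-vehicle averaged 2.15 ± 0.36, CKD-vehicle 2.075 ± 0.12 and CKD-Oxf 1.95 ± 0.50 on that scale.

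Casp1 encodes the caspase of the complex, and its neighbour Casp4 encodes caspase-11, the mouse caspase that binds bacterial lipopolysaccharide inside cells and cuts gasdermin D on its own. They lie next to each other on chromosome 9 (5298517 to 5307265 and 5308828 to 5336783, plus strand). Casp1 spanned 2.11 to 4.596 CPM in sham-vehicle (median 3.07), 1.88 to 4.25 in CKD-vehicle (median 3.34) and 3.28 to 4.09 in CKD-Oxf (median 3.69), where it varied least. Its sham-Oxf levels were 8.916, 3.805, 2.597, 2.999 and 2.134 CPM, so the library that had no count of Nlrp3, Pycard or Il1b had the highest Casp1 level of all 28. Group means of log2 CPM were 1.66 ± 0.30, 1.64 ± 0.41, 1.85 ± 0.79 and 1.9003 ± 0.11, and 1.52 ± 0.35 in sham-Oxf without replicate 1.

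Casp4 spanned 3.04 to 7.95 CPM in sham-vehicle (median 5.80), 4.27 to 8.91 in CKD-vehicle (median 7.83) and 3.81 to 9.73 in CKD-Oxf (median 5.16). The sham-Oxf libraries held 8.39, 5.81, 4.92, 5.32 and 4.92 CPM, with replicate 1 again the highest. Of 6 CKD-vehicle libraries 3 exceeded all 10 sham-vehicle libraries, and the rest overlapped them. Mean log2 CPM was 2.48 ± 0.44, 2.83 ± 0.40, 2.54 ± 0.32 and 2.51 ± 0.45.

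Il1b, the precursor of interleukin-1β, lies on chromosome 2 (129364570 to 129371139, minus strand) and was counted 9 to 61 times in the 27 libraries that held it. It spanned 0.253 to 1.57 CPM in sham-vehicle (median 0.871), 0.301 to 1.09 in CKD-vehicle (median 0.699) and 0.297 to 1.47 in CKD-Oxf (median 0.654). Sham-Oxf held 0, 0.518, 0.657, 1.05 and 0.807 CPM, all within the sham-vehicle range apart from replicate 1. In log2 CPM the means were -0.43 ± 0.78, -0.53 ± 0.59, -1.15 ± 1.82 and -0.51 ± 0.72, with sham-Oxf at -0.35 ± 0.41 without replicate 1.

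Il18, the precursor of interleukin-18, which many cell types store without a priming signal, lies on chromosome 9 (50554827 to 50581840, plus strand). It had 5 to 77 counts per library. Sham-vehicle spanned 0.546 to 1.43 CPM (median 0.838), CKD-vehicle 0.287 to 0.978 (median 0.501) and CKD-Oxf 0.136 to 1.31 (median 0.634). In sham-Oxf it was at 0.806, 1.04, 0.418, 0.730 and 0.390 CPM. Of 6 CKD-vehicle libraries 5 were at or below 0.543 CPM, just under the lowest of the 10 sham-vehicle libraries, and CKD-vehicle replicate 1 at 0.978 overlapped them. Averages in log2 CPM were -0.16 ± 0.43, -0.93 ± 0.60, -0.55 ± 0.57 and -0.70 ± 1.03.

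Gsdmd encodes gasdermin D, the pore of pyroptosis, and lies on chromosome 15 (75862327 to 75867408, plus strand). Levels spanned 10.7 to 17.8 CPM in sham-vehicle (median 14.2), 8.81 to 15.98 in CKD-vehicle (median 14.0) and 12.5 to 20.3 in CKD-Oxf (median 18.2). The sham-Oxf libraries held 8.63, 16.98, 13.43, 14.86 and 16.94 CPM, with replicate 1 the lowest of all 28 libraries. Of the 7 CKD-Oxf libraries 4 exceeded every CKD-vehicle library. Group means of log2 CPM were 3.82 ± 0.27, 3.68 ± 0.34, 3.79 ± 0.40 and 4.06 ± 0.27.

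**Figure D2:**
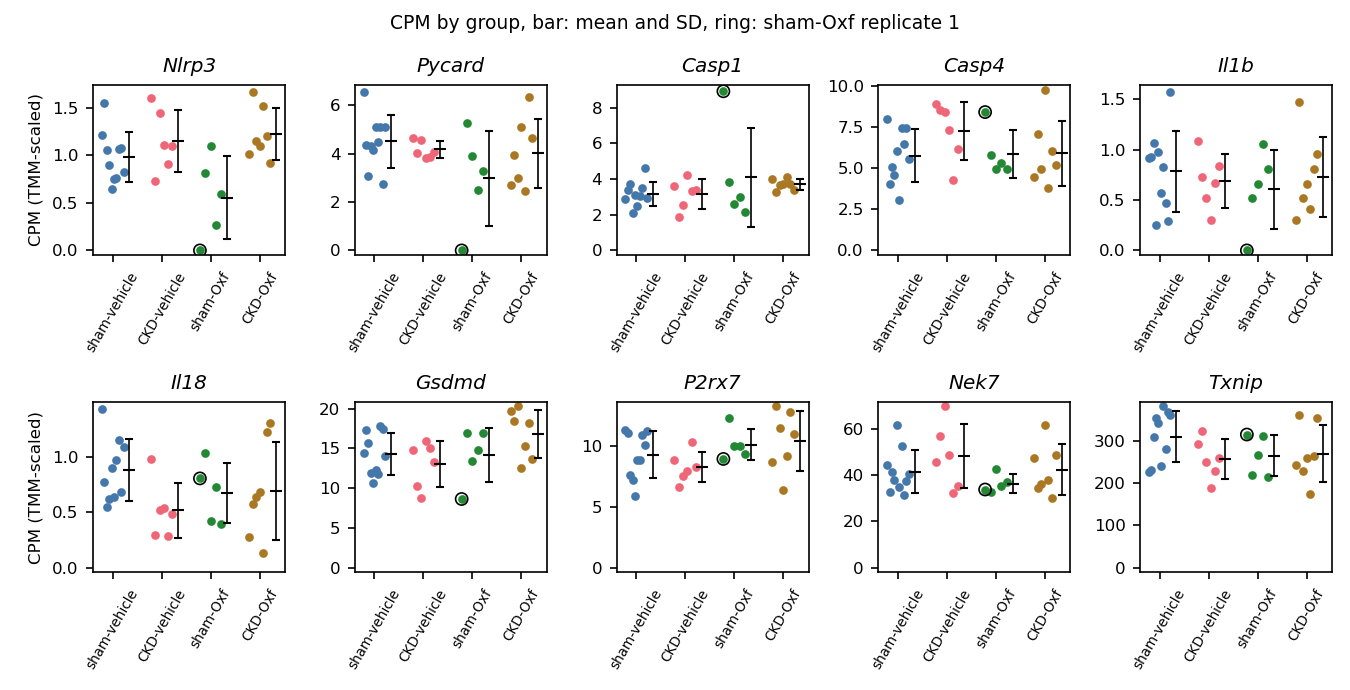
CPM of each member (vertical axes, each from 0) by group, 1 point per library, with the mean and SD as a bar and a ring around sham-Oxf replicate 1. The groups overlap in every panel, and the ringed library is at 0 for Nlrp3, Pycard and Il1b and the highest for Casp1.

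Some members share exon bases with a gene on the other strand, and whether the counting used strand is not given in the sources used here. Pycard (485 shared bases with Gm45205), Txnip (606 with Gm15441), Nek7 (118 with Gm28501) and Il1b (25 with Il1bos) are the 4 cases. Over all libraries the partners had fewer counts, 473 for Gm45205 against 4744 for Pycard and 410 for Gm15441 against 317297 for Txnip. Gm28501 had 470 against 48123 for Nek7, and Il1bos 56 against 836 for Il1b. How reads on shared bases were assigned is not given either, so these totals do not bound the effect of the overlap.

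The first comparison asked whether CKD alone, under vehicle, went with other levels of these genes. No member passed: 0 of 10 had an adjusted p under 0.05 in edgeR's quasi-likelihood test with Benjamini-Hochberg adjustment over all genes, where 0.00824% of all genes did (2 genes). Without sham-Oxf replicate 1, which shares the estimate of spread, it was 0 of 10 and 0.00806% of all genes. Of the members 3 were higher and 7 lower in CKD-vehicle, with a median log2 fold change of -0.12, against -0.03 over all genes tested. Il18 had the lowest p, with a log2 fold change of -0.77 ± 0.37 (SE; p = 0.0493, adjusted p = 0.9545 by edgeR), and was the 1 member with an unadjusted p under 0.05, which 4.46% of all genes reached. The next in size were Casp4 at 0.33 ± 0.21 and Txnip at -0.27 ± 0.16 log2, with intervals of -0.07 to 0.74 and -0.58 to 0.04. Lower in CKD-vehicle were liver (6 of 6, median -2.31 log2), adipose (5 of 5, -1.59) and lymphoid genes (7 of 8, -0.46). Night-phase clock genes were also lower (10 of 10, -0.80), and cardiomyocyte genes were higher (7 of 7, 0.45). None of these passed the adjusted threshold, and their part in the member differences was not tested. DESeq2's Wald test likewise called 0 of 10 members in each of the 7 contrasts.

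Within CKD, Oxf against vehicle was compared next. Again 0 of 10 members passed edgeR's quasi-likelihood test, where 0.033% of all genes did (0 of 10 and 0.0766% without sham-Oxf replicate 1). Gsdmd was at 0.37 ± 0.17 log2 higher in CKD-Oxf (p = 0.0328, adjusted p = 0.342 by edgeR) and was the 1 member with an unadjusted p under 0.05, against 13.1% of all genes. P2rx7 had a similar difference of 0.33 ± 0.16 log2 (adjusted p = 0.3835 by edgeR). The mean 7SL share was 13.6 ± 6.80% in CKD-vehicle and 8.81 ± 6.26% in CKD-Oxf, and the clock scores of these groups did not overlap. Liver genes were higher in CKD-Oxf (6 of 6, median 3.02 log2) and cardiomyocyte genes lower (6 of 7, median -0.61), none past the adjusted threshold, and their part in these differences was not tested. With the clock score in the fit the differences were 0.12 ± 0.23 for Gsdmd and 0.06 ± 0.23 for P2rx7, and with the 7SL share 0.31 ± 0.16 and 0.21 ± 0.14. Because the clock scores did not overlap, clock phase and gavage cannot be told apart between these groups. Nlrp3 (0.09 ± 0.38), Pycard (-0.05 ± 0.39) and Il1b (0.08 ± 0.48) had the intervals -0.65 to 0.83, -0.82 to 0.72 and -0.86 to 1.01.

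In sham mice, Oxf against vehicle gave 0 of 10 members and 0 of all genes (0%) past edgeR's adjusted threshold. No member had an unadjusted p under 0.05, against 12.6% of all genes. Nlrp3 came closest, at -0.79 ± 0.39 log2 (adjusted p = 0.4087 by edgeR), and at -0.50 ± 0.28 (adjusted p = 0.5724) without sham-Oxf replicate 1. Pycard was at -0.58 ± 0.40 with that library and -0.27 ± 0.23 without it. Casp1 changed direction, from 0.35 ± 0.24 to -0.14 ± 0.19, when it was left out. Log2 CPM means depend on the prior where a library has no count. Fitted folds that rest on such a library are no bound. The mean 7SL share was 4.14 ± 3.52% in sham-Oxf and 9.78 ± 5.24% in sham-vehicle. Night-phase clock genes (10 of 10, median 0.85 log2) and lymphoid genes (8 of 8, 0.71) were higher in sham-Oxf. Fibroblast genes were lower (6 of 6, -0.60), and blood genes higher (5 of 5, 0.57). Without replicate 1 the blood genes were lower (5 of 5, -1.84). None of these passed the adjusted threshold, and their part was not tested.

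**Figure D3:**
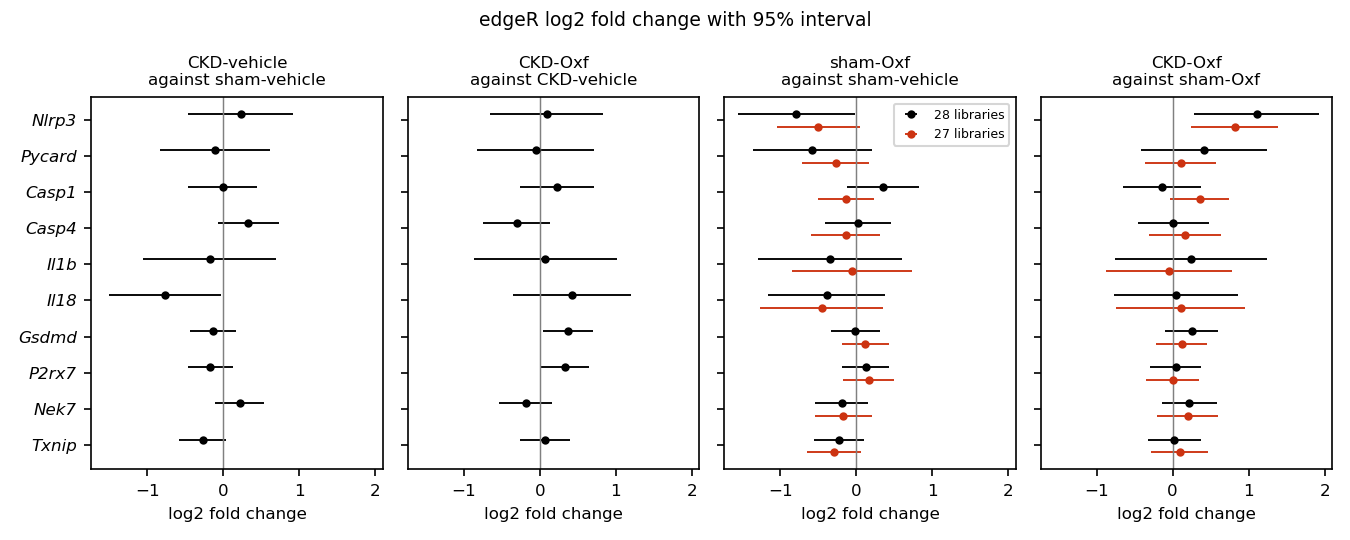
Log2 fold change of each member with its 95% interval (from edgeR) in the 4 pairwise comparisons, from all 28 libraries in black and, where sham-Oxf enters, from 27 libraries in red. Intervals that leave out 0 belong to Il18, Gsdmd, P2rx7 and Nlrp3, and no member passed adjustment over all genes. The edgeR p was still over 0.05 for P2rx7 in CKD-Oxf against CKD-vehicle (0.0513) and Nlrp3 in sham-Oxf against sham-vehicle (0.05571).

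Among colonized mice, CKD-Oxf against sham-Oxf also gave 0 of 10 members and 0% of all genes past the threshold in edgeR. Of the members 9 were higher and 1 lower in CKD-Oxf, with a median of 0.13 log2 against 0.05 over all genes. Without sham-Oxf replicate 1, 8 were higher and 2 lower, with a median of 0.11 against -0.0034 over all genes. Nlrp3 had the widest difference, 1.10 ± 0.42 log2 higher in CKD-Oxf (p = 0.0132, adjusted p = 0.4205 by edgeR), the 1 member with an unadjusted p under 0.05, against 8.23% of all genes. Leaving out sham-Oxf replicate 1, it was 0.81 ± 0.29 log2 (p = 0.009575, adjusted p = 0.5771 by edgeR). In that fit 5 of 5 blood genes had an unadjusted p under 0.05 and were higher in CKD-Oxf (median 2.67 log2), and 8 of 8 lymphoid genes were lower (median -0.70), with none past the adjusted threshold. With all 28 libraries these medians were 0.43 and -0.46, and the part of such cells in the Nlrp3 difference was not tested. Fewer macrophages and less Nlrp3 per macrophage cannot be told apart in bulk tissue. Macrophage markers (12 genes) summed to 143 to 262 CPM in sham-Oxf and 160 to 282 CPM in CKD-Oxf, and 0 of the 12 passed in any of the 7 contrasts. Like Nlrp3, 10 of the 12 were higher in CKD-Oxf (median 0.11 log2), or 9 (median 0.099) without sham-Oxf replicate 1. In sham-Oxf against sham-vehicle 11 of the 12 were lower (median -0.14), or 8 (median -0.060) without that library. With the macrophage score in the fit and sham-Oxf replicate 1 kept in, the Nlrp3 difference was 1.13 ± 0.35 log2. The part of macrophages in this difference was not tested. Neutrophil markers summed to 8.30 CPM at most in any library, and only 3 of these 8 markers were high enough to be tested.

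Over the whole design, surgery averaged over gavage left Nlrp3 as the 1 member with an unadjusted p under 0.05, at 0.66 ± 0.27 log2 (p = 0.0202, adjusted p = 0.3879 by edgeR). It was 0.52 ± 0.19 (p = 0.008872, adjusted p = 0.2706) without sham-Oxf replicate 1. No member and no gene (0%) passed edgeR's adjusted threshold there, and 10.6% of all genes had an unadjusted p under 0.05. Oxf averaged over surgery called 2.81% of all genes (681) and 0 of 10 members, of which none had an unadjusted p under 0.05, against 23% of all genes. The largest member difference in units of its error was that of P2rx7, 0.23 ± 0.11 log2 (adjusted p = 0.2297 by edgeR). Without sham-Oxf replicate 1, Gsdmd (0.25 ± 0.11, adjusted p = 0.1515 by edgeR) and P2rx7 (0.25 ± 0.12, adjusted p = 0.1754) had unadjusted p under 0.05 and 0 of 10 members passed, where 3.5% of all genes did. The share of all genes with an unadjusted p under 0.05 was not computed for that fit. These 2 of 10 are near the 23% found over 28 libraries. With the clock score in the fit of 28 libraries the Gsdmd difference changed sign.

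The interaction asks whether the CKD difference depended on the gavage. It called 0 of 10 members and 0% of all genes in edgeR, with no member at an unadjusted p under 0.05 and 3.55% of all genes there. Nlrp3 had an interaction of 0.88 ± 0.54 log2 and Il18 one of 0.81 ± 0.56. Without sham-Oxf replicate 1 these were 0.59 ± 0.37 and 0.87 ± 0.56. These comparisons share their control libraries and are not independent of one another.

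Slopes of the members on the macrophage marker score (mean log2 CPM of the 12 markers) were fitted within groups. In edgeR 3 of 10 members passed, where 22.1% of all genes did: Pycard rose by 1.67 ± 0.29 log2 per unit of the score (adjusted p = 0.0007571), Nlrp3 rose by 1.12 ± 0.34 (adjusted p = 0.02168), and Casp1 had a slope of -0.57 ± 0.16 (adjusted p = 0.01622). The count of 3 is near the share of all genes, so it says nothing particular of these members. The score did not move with macrophage markers alone. Of other cell type markers, 7 of 8 lymphoid genes (median slope 3.35), 4 of 5 adipose genes (4.30) and 3 of 6 fibroblast genes (0.54) were called higher and 4 of 5 blood genes (-1.78) lower with it, against a median of 0.84 for the macrophage markers that define it. Sham-Oxf replicate 1, with a score of -1.78 against -0.58 to 0.51 in the other libraries, ended 2 of these calls when left out. Without it 2 of 10 members passed, against 8.99% of all genes: Pycard with a slope of 1.01 ± 0.18 (adjusted p = 0.001935) and Il18 with 1.40 ± 0.40 (adjusted p = 0.02952). With all 28 libraries the Il18 slope was 0.55 ± 0.32 (adjusted p = 0.1957), and it passed in 1 of 28 fits that left out a library. In the 27 libraries 6 of 8 lymphoid (median slope 3.20), 2 of 5 adipose (4.24) and 4 of 6 fibroblast genes (1.08) were also called higher with the score, and the part of those cells in the Pycard and Il18 slopes was not tested. Nlrp3 was then at 0.52 ± 0.31 (adjusted p = 0.3112) and Casp1 at -0.07 ± 0.22 (adjusted p = 0.8859). The Pycard slope passed in 28 of 28 fits that left out 1 library, that of Nlrp3 in 27 and that of Casp1 in 26 (not without sham-Oxf replicate 1 or 3). Il1b, at 1.11 ± 0.50 (adjusted p = 0.1023) with all libraries, passed in 3 of those fits (without CKD-vehicle replicate 3, sham-Oxf replicate 4 or CKD-Oxf replicate 2).

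A second measure, the share of 7SL RNA, was examined after the data were seen. Slopes on its log2 share passed for 3 of 10 members, near the 37.7% of all genes that did so in edgeR, so the count says nothing particular of these genes. Casp4 (0.24 ± 0.06 log2 per doubling, adjusted p = 0.0054) and Nek7 (0.17 ± 0.05, adjusted p = 0.01437) rose with the share, and P2rx7 had a slope of -0.17 ± 0.05 (adjusted p = 0.007002). The same 3 passed without sham-Oxf replicate 1, where 42.6% of all genes did. Leaving out CKD-Oxf replicate 4, the library with the second-highest share (20.6%), left 1 of the 3, P2rx7. The Nek7 call also ended without sham-vehicle replicate 5, CKD-vehicle replicate 3 or CKD-vehicle replicate 5.

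**Figure D4:**
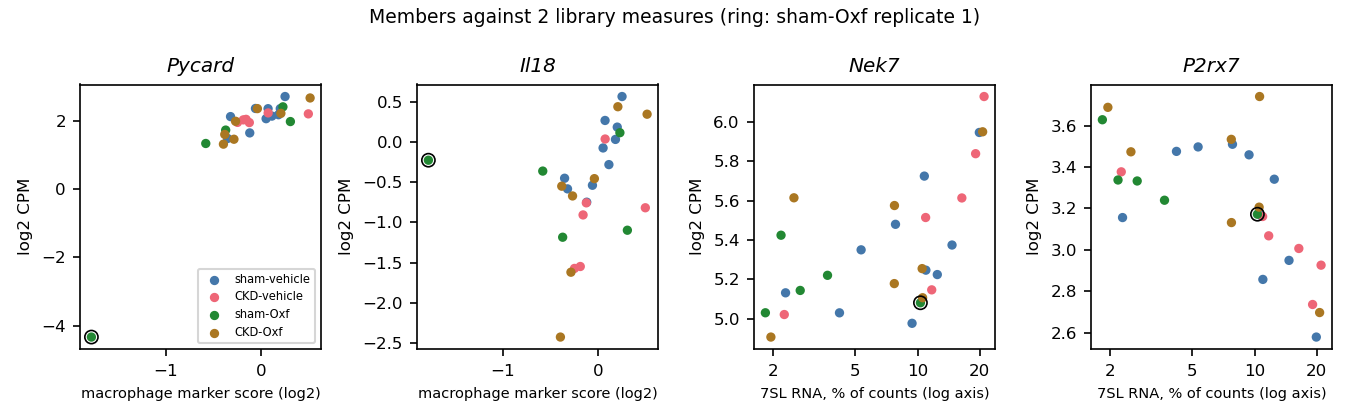
Log2 CPM of Pycard and Il18 against the macrophage marker score (log2 units) and of Nek7 and P2rx7 against the 7SL share (percent of counts, log axis), 1 point per library coloured by group, with a ring around sham-Oxf replicate 1. Pycard and Il18 are higher where the score is higher among the other 27 libraries, Nek7 is highest and P2rx7 lowest in libraries with about 20% 7SL RNA.

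On the clock score, 0 of 10 members had a slope past edgeR's adjusted threshold, nor one with an unadjusted p under 0.05, where 0.169% and 11.2% of all genes did. Txnip was at 0.04 ± 0.07 log2 per unit of the score. Its relative Arrdc2, which encodes another arrestin-domain protein, rose by 0.76 ± 0.11 log2 per unit (adjusted p = 0.0004268 by edgeR) and was the 1 gene of 14 in the thioredoxin and arrestin-domain list that passed.

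Another 6 lists of pathway genes were read from the same fit. Other inflammasome sensors (16 of 17 tested), priming receptors and NF-κB factors (17 of 17), ion flux and regulators (19 of 20), interleukin-1 and interleukin-18 signalling (11 of 14) and thioredoxin and arrestin-domain genes (14 of 14) had 0 genes past edgeR's adjusted threshold in any of the 7 contrasts. Nlrp12, Trim31, Il1rn, Il1r2 and Il6 were too low to be tested. The pyroptosis and caspase list had 2 of 12 past the threshold in 1 contrast, Oxf averaged over surgery, where 2.81% of all genes passed. Chmp2a, a subunit of the ESCRT-III complex that repairs gasdermin pores, fell by 0.66 ± 0.18 log2 (adjusted p = 0.04498). Hmgb1, a nuclear protein released by dying cells, fell by 0.47 ± 0.13 log2 (adjusted p = 0.04729). In the same contrast 6 of 6 fibroblast genes (median -0.56, 1 past the threshold) and 6 of 7 cardiomyocyte genes (median -0.53, 1 past it) were lower, and 5 of 6 liver genes were higher (median 1.52, 1 past it). The part of these cell types in both values was not tested. Their slopes on the log2 7SL share were 0.27 ± 0.07 (adjusted p = 0.006066) and 0.21 ± 0.05 (adjusted p = 0.001991). With that share in the fit the differences were -0.32 ± 0.17 (adjusted p = 0.3234) and -0.24 ± 0.12 (adjusted p = 0.2971), and with the clock score -0.41 ± 0.30 (adjusted p = 0.8619) and -0.15 ± 0.20 (adjusted p = 0.9185).

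The number of list genes with an unadjusted p under 0.05 for Oxf averaged over surgery was 5 higher and 1 lower of 16 sensors and 7 higher and 1 lower of 17 priming genes, against 23% of all genes in either direction. On the log2 7SL share 15 of 16 sensors and 12 of 17 priming genes had negative slopes. In each list 6 were called lower and 1 higher, against 37.7% of all genes. On the clock score 14 of 16 sensors and 12 of 17 priming genes rose, with 0 called. The part of both measures in these counts was not tested. The smallest p among the sensors in any contrast was that of Ifi204, a DNA-sensing interferon-induced protein, at 0.34 ± 0.08 log2 higher in CKD averaged over gavage (adjusted p = 0.2302 by edgeR). Rela, the p65 subunit of NF-κB, had the smallest among the priming genes, at 0.42 ± 0.13 in sham-Oxf against sham-vehicle (adjusted p = 0.2115). For Oxf averaged over surgery, the smallest in the other 3 lists belonged to Hsp90ab1, a chaperone that stabilises NLRP3 (-0.45 ± 0.14, adjusted p = 0.06316), Il1r1, the interleukin-1 receptor (-0.21 ± 0.07, adjusted p = 0.07756), and Arrdc1 (0.60 ± 0.17, adjusted p = 0.05154). Without sham-Oxf replicate 1, Tnf (1.05 ± 0.27 log2, adjusted p = 0.03517), Relb (0.39 ± 0.11, adjusted p = 0.04569) and Hmgb1 (-0.48 ± 0.14, adjusted p = 0.04999) passed in edgeR for Oxf averaged over surgery, while Chmp2a (-0.57 ± 0.17, adjusted p = 0.05563) did not. With all 28 libraries Tnf was at 0.90 ± 0.34 (adjusted p = 0.1189) and Relb at 0.31 ± 0.12 (adjusted p = 0.1392), and each passed in 1 of 28 fits that left out a library, over which Tnf ranged from 0.66 to 1.05 log2. On the log2 7SL share, Tnf had a slope of -0.47 ± 0.14 (adjusted p = 0.01232) and Relb one of -0.20 ± 0.05 (adjusted p = 0.002735) over 28 libraries.

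The genes most alike in pattern were taken from 13899 genes by Spearman's rho of log2 CPM after subtraction of group means. These are descriptions over libraries that share depth and composition. Over 28 libraries, Pycard was most like Sqle (0.91) and Clcn5 (0.88), Casp4 like Pi4k2b (0.87), and Gsdmd like Stk19 (0.89) and Cep162 (0.87). Nek7 was most like a transcript with only a clone name (0.95) and Srp54a (0.94), a protein subunit of the particle that holds the 7SL RNA. Il1b was most like Ptgs2 (0.75), the inducible cyclooxygenase, and Daglb (0.72), and Nlrp3 like Grk4 (0.68). P2rx7 was most like Cep295nl (0.89), Il18 like Slc30a7 (0.77), Casp1 like Actr5 (0.76) and Txnip like Ifi205 (0.66).

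Without sham-Oxf replicate 1, over 27 libraries, Gsdmd was most like Sp100 (0.90) and Stat2 (0.89), both interferon-pathway genes, and Casp1 like Trim12a and Trim5 (0.71 each). Nek7 and P2rx7 were most like transcripts with only a clone name (0.96 and 0.89). Casp4 was most like Agbl3 (0.92), Pycard like Ildr2 (0.90), Il18 like Dpp4 (0.79) and Nlrp3 like Prrt4 (0.65). Il1b was most like Ier2 and Junb (0.71 each) and Txnip like Dusp1 (0.69) and Dusp6 (0.68), immediate early genes and phosphatases of the MAP kinase pathway. Between members, Pycard and Casp1 had a rho of -0.56 over 28 libraries and -0.27 over 27. The rho of P2rx7 with Nek7 was -0.60 and that of Gsdmd with Nek7 was -0.53 over 28 libraries. The largest positive rho over 28 libraries were those of Casp4 with Il18 (0.60), Pycard with Il1b (0.57) and Nlrp3 with Gsdmd (0.52). Over 27 libraries these were 0.53, 0.25 and 0.37. The largest there were those of Pycard with Il18 (0.67) and Casp1 with Gsdmd (0.65).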

How the data were processed

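The authors deposited 1 table of raw counts per gene for 28 libraries of total RNA from ventricular myocardium. The submitters' processing notes name FastQC 0.11.7, MultiQC 1.9, STAR 2.6.1d, Subread, featureCounts 1.6.3 and mm10, with no role stated. The strand setting and annotation are not given in the sources used here.

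Counts were scaled with TMM factors and fitted in 1 model of 4 group means (R 4.3.3, edgeR 4.0.16, robust quasi-likelihood test). filterByExpr with a minimum count of 10 left 24273 of 45513 genes. P-values were adjusted by Benjamini-Hochberg across them (threshold 0.05) for 7 contrasts, namely 4 pairwise ones, the interaction and 2 averaged effects. Slopes on the clock and macrophage scores and, added after seeing the data, on the log2 7SL share used group means plus the score. Log2 CPM used a prior count of 2. Standard errors are the fold change over the square root of the F statistic, and 95% intervals are 1.96 of them. That multiplier is of a normal distribution, so an interval can leave out 0 where the F test's p is over 0.05. Depth was 19.8 to 65.4 M counts per library. The precision of the rare genes is limited by it. The fit was tested on simulated data. Alternatives were DESeq2 1.42.0, its size factors, no filter, 3 covariates, the compared groups only, a prior of 0.5 for log2 CPM, and leaving out each library.

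The labels number mice and give no batch, and replicates were numbered in the order of the records, so no pairing was used. P-values measure the spread between these mice. Exon lengths and overlaps come from GENCODE M21, in which 45465 of 45513 gene IDs were found, and promoters from RefSeq (GRCm38.p6), which matched 9 members and not Gsdmd. The members and lists were chosen with earlier results of these data known. All members were named. Of the 6 pathway lists, each gene past the threshold in a contrast over 28 libraries was named, and for a list with none the gene with the smallest p in 1 contrast. Cell type and clock markers, and list genes called on a slope, are given as counts. For each member the 2 most alike genes were computed, and the leading ones are given. The values of Tnf and Relb were added after they were seen.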

Additional observations from a re-analysis of the deposited data

Results flagged for a closer look

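In each of the groups, of 5, 6, 7 and 10 libraries, the gap between the lowest or highest log2 CPM and its nearest neighbour was compared with the range of the group, by Dixon's criterion at 95%. Of 40 combinations of member and group 2 exceeded the limit, and chance gives about 2. Both were the count of 0 in sham-Oxf replicate 1. For Pycard the gap was 0.841 of the range of the 5 sham-Oxf libraries, and for Il1b it was 0.786, against a limit of 0.71. These shares depend on the prior count that sets the log2 CPM of a library with no count. The same library had the fewest counts and the lowest macrophage marker score of all 28, and the part of either in these values was not tested.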

How the results depend on the processing

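No member passed the adjusted threshold of edgeR's quasi-likelihood test or of DESeq2's Wald test in any of the 7 contrasts under any alternative or with any 1 library left out. Of the alternative member values (levels, fold changes and slopes), those below changed sign, none of them past the threshold. The causes were not tested.

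For CKD-vehicle against sham-vehicle the 2 genes past the threshold became 33 with DESeq2's Wald test, 1 with no filter, 0 with the clock score as a covariate, 22 with the 7SL share and 1 with only the compared groups. For CKD-Oxf against CKD-vehicle the 8 genes past the threshold became 191 with DESeq2's Wald test, 5 with DESeq2 size factors, 5 with no filter and 0 with the clock score as a covariate. For sham-Oxf against sham-vehicle the 0 genes past the threshold became 169 with DESeq2's Wald test, 2 with the clock score as a covariate and 141 with the 7SL share. For CKD-Oxf against sham-Oxf the 0 genes past the threshold became 134 with DESeq2's Wald test. For the interaction of surgery and gavage the 0 genes past the threshold became 1 with DESeq2's Wald test. For Oxf averaged over surgery the 681 genes past the threshold became 2083 with DESeq2's Wald test, 161 with no filter, 0 with the clock score as a covariate, 165 with the macrophage score and 132 with the 7SL share. For CKD averaged over gavage the 0 genes past the threshold became 131 with DESeq2's Wald test, 1 with the clock score as a covariate, 2 with the macrophage score and 45 with the 7SL share.

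CKD-vehicle against sham-vehicle had log2 fold changes of the other sign for Pycard (0.019) with the 7SL share and Casp1 (0.0404), Gsdmd (0.015) and Nek7 (-0.018) with the clock score as a covariate. It also had Casp1 (0.0052) with only the compared groups. CKD-Oxf against CKD-vehicle had log2 fold changes of the other sign for Il1b (-0.18), Nek7 (0.19) and Txnip (-0.029) with the clock score as a covariate and Il1b (-0.048) with the 7SL share. Sham-Oxf against sham-vehicle had log2 fold changes of the other sign for Casp1 (-0.012), Casp4 (-0.0092), Il1b (0.064) and Gsdmd (0.028) with the macrophage score and Casp4 (-0.00403) with no filter. It also had Casp4 (-0.019) with only the compared groups and P2rx7 (-0.056) and Nek7 (0.042) with the clock score as a covariate. It also had P2rx7 (-0.10) and Nek7 (0.051) with the 7SL share. CKD-Oxf against sham-Oxf had log2 fold changes of the other sign for Casp1 (0.18), Il1b (-0.017), Il18 (-0.25) and P2rx7 (-0.018) with the macrophage score and Casp4 (-0.00026) with DESeq2's Wald test. It also had Casp4 (-0.00085) with DESeq2 size factors and Casp4 (-0.021) with the clock score as a covariate. It also had Casp4 (-0.23) and Txnip (-0.028) with the 7SL share and Casp4 (-0.0025) with only the compared groups. Interaction of surgery and gavage had log2 fold changes of the other sign for Casp1 (0.21) and Nek7 (-0.056) with the macrophage score and Nek7 (-0.10) with the 7SL share. Oxf averaged over surgery had log2 fold changes of the other sign for Casp4 (0.11), Il18 (-0.19) and Nek7 (0.00201) with the 7SL share and Il1b (0.087) with the macrophage score. It also had Il18 (-0.0079) with no filter and Gsdmd (-0.038) and Nek7 (0.11) with the clock score as a covariate. CKD averaged over gavage had log2 fold changes of the other sign for Casp1 (0.0799) and Il1b (-0.0399) with the macrophage score and Casp4 (-0.0014) and P2rx7 (0.052) with the 7SL share. It also had P2rx7 (0.044) with the clock score as a covariate.

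Leaving out 1 library at a time gave these ranges. CKD-vehicle against sham-vehicle had genes past the threshold numbering from 0 to 1. Fold changes for CKD-vehicle against sham-vehicle were Casp1 -0.14 to 0.074 (log2). CKD-Oxf against CKD-vehicle had genes past the threshold numbering from 0 to 927 (highest without CKD-Oxf replicate 4). Fold changes for CKD-Oxf against CKD-vehicle were Nlrp3 -0.013 to 0.21, Pycard -0.20 to 0.058, Il1b -0.19 to 0.25 and Txnip -0.018 to 0.16 (log2). Sham-Oxf against sham-vehicle had genes past the threshold numbering from 0 to 20. Fold changes for sham-Oxf against sham-vehicle were Casp1 -0.14 to 0.52, Casp4 -0.14 to 0.086 and Gsdmd -0.085 to 0.12 (log2). Fold changes for CKD-Oxf against sham-Oxf were Casp1 -0.30 to 0.35, Casp4 -0.17 to 0.16, Il1b -0.049 to 0.52, Il18 -0.19 to 0.26, P2rx7 -0.028 to 0.12 and Txnip -0.062 to 0.11 (log2). Fold changes for interaction of surgery and gavage were Casp1 -0.29 to 0.36 and Nek7 -0.10 to 0.16 (log2). Oxf averaged over surgery had genes past the threshold numbering from 109 to 3362 (highest without CKD-Oxf replicate 4). Fold changes for Oxf averaged over surgery were Il1b -0.27 to 0.011 and Il18 -0.10 to 0.16 (log2). CKD averaged over gavage had genes past the threshold numbering from 0 to 1. Fold changes for CKD averaged over gavage were Pycard -0.0024 to 0.30, Casp1 -0.16 to 0.17, Il1b -0.11 to 0.17 and Gsdmd -0.0098 to 0.093 (log2). Clock score slope had genes past the threshold numbering from 16 to 61. Slopes for clock score slope were Nlrp3 -0.091 to 0.027, Pycard -0.046 to 0.12, Casp1 -0.0298 to 0.13, Casp4 -0.12 to 0.0017, Il1b -0.062 to 0.24, Il18 -0.085 to 0.11 and Txnip -0.0022 to 0.078 (log2). Macrophage score slope had genes past the threshold numbering from 2230 to 7285 (highest without CKD-vehicle replicate 3). Slopes for macrophage score slope were Casp4 -0.093 to 0.36 and Gsdmd -0.25 to 0.27 (log2). 7SL share slope had members past the threshold numbering from 1 to 3. Slopes for 7SL share slope were Nlrp3 -0.17 to 0.019 (log2).

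Chmp2a and Hmgb1 lost their calls for Oxf averaged over surgery without a filter (adjusted p = 0.06796 and 0.06742) and with each of the 3 covariates, kept them with DESeq2 (0.01074 and 0.01262), and passed in 10 and 9 of 28 fits that left out 1 library. The slope on the 7SL share was added after seeing the data. Log2 CPM group means moved by less than 1 SD with a prior of 0.5 or DESeq2 size factors (80 values). No paired analysis was possible because the labels give mouse numbers that no groups share. Depth limits Nlrp3, Il1b and Il18 most, with at most 87 counts in a library.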
